A study of Mus musculus with 21 samples.

Results

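The immediate early transcription factors described here are 10 genes taken by symbol: Fos, Fosb, Jun, Junb, Jund, Egr1, Egr2, Egr3, Atf3 and Nr4a1. All 10 were found among the 54532 genes of the count table. Each was counted in all 21 libraries, with a lowest count of 624 reads (Egr2 in lean monocyte derived replicate 3), and all 10 were among the 22935 genes left after a filter on low counts. The libraries hold RNA of myeloid cells sorted by flow cytometry from adipose tissue of male C57BL/6 mice. Obese mice had eaten a high fat diet (HFD) and lean mice a normal diet (ND), both for 16 weeks. The 7 groups of 3 libraries were obese and lean MHCIIlow macrophages, obese and lean MHCII+CD11c- macrophages, obese MHCII+CD11c+ macrophages, and obese and lean monocyte derived cells. The labels name no transgene or altered allele, and they do not give the age of the mice, the fat depot, or whether a library pools animals. In every group the tissue had been taken apart with collagenase before sorting, RNA had been purified with a PicoPure kit, and libraries had been made with a NuGen Ovation mouse kit.

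Immediate early genes are switched on within minutes of a stimulus without new protein synthesis, because the factors that start their transcription are already present and only need to be phosphorylated or moved to the nucleus. FOS and JUN proteins pair through leucine zippers to form AP-1, EGR proteins bind GC-rich sites through zinc fingers, ATF3 binds as a zipper protein to related sites and often represses, and NR4A1 is an orphan nuclear receptor. In macrophages these factors are known for the first wave of the response to microbial products, cytokines, lipids and mechanical stress. Enzymatic digestion and sorting of tissue are known to switch on the same genes. All libraries here come from digested tissue, so a level in these data is the level after digestion, and the level in undisturbed tissue was not measured.

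The promoter windows of 4 AP-1 genes are shown because each differed between the diets in some population, as Jund and Nr4a1 also did. In MHCIIlow and MHCII+CD11c- macrophages Fos moved the other way from its relative Fosb. The windows come from RefSeq (build GRCm38.p6, 250 bases before to 50 bases after the annotated start, written 5′ to 3′ on the strand of the gene). Capitals mark TGACG, the core bound by CREB and ATF factors, searched on both strands. The windows are Fos at chr12:85473640-85473939 (plus strand), Fosb at chr7:19309996-19310295 (minus), Junb at chr8:84978699-84978998 (minus) and Jun at chr4:95052173-95052472 (minus).
Fos: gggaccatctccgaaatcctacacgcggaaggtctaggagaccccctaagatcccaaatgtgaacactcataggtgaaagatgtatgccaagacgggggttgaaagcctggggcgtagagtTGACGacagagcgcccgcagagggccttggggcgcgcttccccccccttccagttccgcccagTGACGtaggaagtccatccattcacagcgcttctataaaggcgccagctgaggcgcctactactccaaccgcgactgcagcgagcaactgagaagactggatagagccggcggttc
Fosb: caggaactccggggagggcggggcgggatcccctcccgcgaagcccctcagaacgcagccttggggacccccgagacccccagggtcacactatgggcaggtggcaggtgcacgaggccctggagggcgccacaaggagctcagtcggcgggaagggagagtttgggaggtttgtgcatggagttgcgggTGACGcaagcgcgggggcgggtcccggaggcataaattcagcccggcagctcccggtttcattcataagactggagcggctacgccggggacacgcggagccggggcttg
Junb: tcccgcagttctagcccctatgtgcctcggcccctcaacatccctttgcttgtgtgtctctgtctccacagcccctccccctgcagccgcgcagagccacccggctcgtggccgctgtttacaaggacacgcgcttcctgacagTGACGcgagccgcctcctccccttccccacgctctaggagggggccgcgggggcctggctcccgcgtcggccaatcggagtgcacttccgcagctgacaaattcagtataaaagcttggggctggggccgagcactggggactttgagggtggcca
Jun: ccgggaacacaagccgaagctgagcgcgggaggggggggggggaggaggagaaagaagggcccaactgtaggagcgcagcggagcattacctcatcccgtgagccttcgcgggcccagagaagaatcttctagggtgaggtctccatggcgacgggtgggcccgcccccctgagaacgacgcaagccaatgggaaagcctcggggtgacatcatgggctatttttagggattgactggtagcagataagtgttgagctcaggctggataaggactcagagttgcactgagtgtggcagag

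The Fos window holds the core beginning 129 and 66 bases before the start, the Fosb window 60 bases before it and the Junb window 106 bases before it, and the Jun window holds none. Of the 8 members with a window, 6 hold at least 1 core in any of their windows (Atf3, Egr2, Fos, Fosb, Junb and Nr4a1), against 23.0% of the 27025 genes of the table and 20.8% of its 32851 windows. Egr2 has 5 windows and the other members 1 each. The full CRE, TGACGTCA, is in no member's window and in 1.79% of all windows. The AP-1 site TGANTCA is also in no member's window and in 7.81% of all. A CArG box, the site of serum response factor, is in windows of Egr2 and in 1.63% of all, and the EGR site GCGNGGGCG is in those of Fosb and Nr4a1 and in 5.55% of all. Egr1 and Egr3 have no window, and sites more than 250 bases before a start lie outside the windows, so their absence was not shown. The TATA box TATAAA lies 33 bases before the start of Fos and at the start of Junb, and is in 13.6% of all windows. The core is part of the full CRE, and a match of letters is a description of these windows, not a binding site. The RefSeq start of Jund lies 1210 bases upstream of the gene start in the annotation used here for gene names. The Jund window is therefore not shown. The RefSeq starts of Atf3 and Nr4a1 lie 34706 and 12577 bases downstream of their gene starts, and that of Junb 30 bases upstream. The Egr2 starts whose windows hold a CArG box or a core lie 2091 to 2455 bases downstream of its gene start. The Egr2 window whose start lies 24 bases from the gene start holds neither.

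On GRCm38 the members lie on 9 chromosomes and share no locus. Fos is at chromosome 12, 85473890 to 85477273, Fosb at chromosome 7, 19302696 to 19310051, and Jun at chromosome 4, 95049034 to 95052222. Junb (84974484 to 84978718) and Jund (70698949 to 70700616) are both on chromosome 8. No source used here gives the strand setting of the counting, so reads of genes that overlap on opposite strands cannot be told apart. Fos, Fosb, Egr1, Egr2, Egr3 and Nr4a1 are overlapped by no annotated gene. The exons of Junb share 173 bases with Prdx2, a peroxiredoxin gene on the other strand whose own level was 23.4 to 90.7 CPM, and Jun shares 232 bases with its antisense gene Junos, at 0.970 to 4.09 CPM. Jund shares 877 bases with the antisense gene Gm11175, which is listed at 0 in all libraries, and Gm24748, which lies within Atf3 on the other strand, shares none of its exonic bases.

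Library totals ran from 11245851 counts (lean monocyte derived replicate 3) to 35568948 counts (obese MHCIIlow replicate 1). Levels are CPM, counts scaled to the library total, with TMM scaling unless stated otherwise. Lean monocyte derived replicates 1 and 3 stood apart: 73.67% and 67.13% of their counts lay on protein-coding genes, against 76.87% to 84% in the other 19 libraries, and 2.227% and 2.424% on mitochondrial genes, against 1.038% in replicate 2. Comparisons of the factors and lists that use this group are therefore also given without those libraries, a choice made after the data were seen. Group means, and patterns over group means, keep them. The lean arm is then 1 library, replicate 2, which is assumed to vary like the other groups, and such a fit has no check of its own on that arm. Receptor genes of smell and pheromone sensing summed to fewer CPM of the library total in obese than in lean libraries of each population: 30.3 to 47.9 against 141 to 213 in MHCIIlow macrophages, 25.5 to 30.1 against 62.2 to 126 in MHCII+CD11c- macrophages, and 73.7 to 163 against 295 to 1101 in monocyte derived cells. Markers of other cells also differed between the diets. The 7 fibroblast and preadipocyte markers, all detected, summed to 888 to 2015 CPM in obese against 632 to 820.1 CPM in lean MHCIIlow macrophages, 893 to 2128 against 538 to 730.4 CPM in MHCII+CD11c- macrophages, and 520.1 to 1539 against 198 to 304 CPM in monocyte derived cells, with obese replicate 2 highest in each. The 9 T and NK cell markers summed to 4.41 to 7.15 CPM in obese against 14.3 to 19.7 CPM in lean MHCIIlow macrophages and to 2.70 to 4.84 against 11.9 to 12.6 CPM in MHCII+CD11c- macrophages. The 6 dendritic cell markers summed to 31.0 to 56.7 CPM in obese against 101 to 115 CPM in lean MHCIIlow macrophages and to 14.8 to 21.8 against 76.6 to 86.7 CPM in MHCII+CD11c- macrophages, and the 5 mesothelial markers to 9.41 to 18.9 against 27.5 to 44.4 CPM in MHCIIlow macrophages. The neutrophil marker Ly6g was at 0 in all 4 obese groups and in lean MHCII+CD11c- macrophages. The part of these genes in the diet comparisons was not tested. All 7 macrophage marker genes were detected in all groups, with sums of 7867 to 9958 CPM in obese against 5872 to 7263 CPM in lean MHCIIlow macrophages and 7549 to 9082 against 5751 to 6704 CPM in MHCII+CD11c- macrophages, and of the sort genes H2-Ab1, an MHC class II chain, stood at 208 to 457 CPM in MHCIIlow libraries and at 1182 CPM or more elsewhere. Itgax, which encodes CD11c, was at 451 to 625 CPM in obese MHCII+CD11c+ and 57.2 to 96.9 CPM in obese MHCII+CD11c- libraries. Itgax also differed between the diets within a gate, with 57.2 to 96.9 CPM in obese against 14.1 to 19.1 CPM in lean MHCII+CD11c- macrophages and 20.6 to 57.7 CPM in obese against 3.70 to 5.53 CPM in lean MHCIIlow macrophages, and its part in the diet comparisons was not tested.

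The factors were abundant messages in these sorted cells. Ranked per kilobase of exon by the mean level over all libraries, Junb stood 53rd of the 22935 genes tested with 529 CPM per kilobase, Atf3 80th (329), Fos 82nd (326), Fosb 88th (308) and Jund 106th (256). Jun ranked 176th with 166 CPM per kilobase, Egr1 272nd with 114 and Nr4a1 437th with 79.5, while Egr2 (38.5) and Egr3 (15.1) ranked 982nd and 2666th. Summed over the 10 genes and taken per library total without TMM scaling, they made up 7561 to 8475 CPM in obese and 8785 to 10425 CPM in lean MHCIIlow macrophages. The sum was 5371 to 5938 CPM in obese against 7732 to 8864 CPM in lean MHCII+CD11c- macrophages, 4181 to 4873 CPM in obese MHCII+CD11c+ macrophages, and 5528 to 5694 CPM in obese against 3658 to 5706 CPM in lean monocyte derived cells. In bulk samples such as these, fewer cells carrying a message and less message per cell cannot be told apart.

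**Figure D1:**
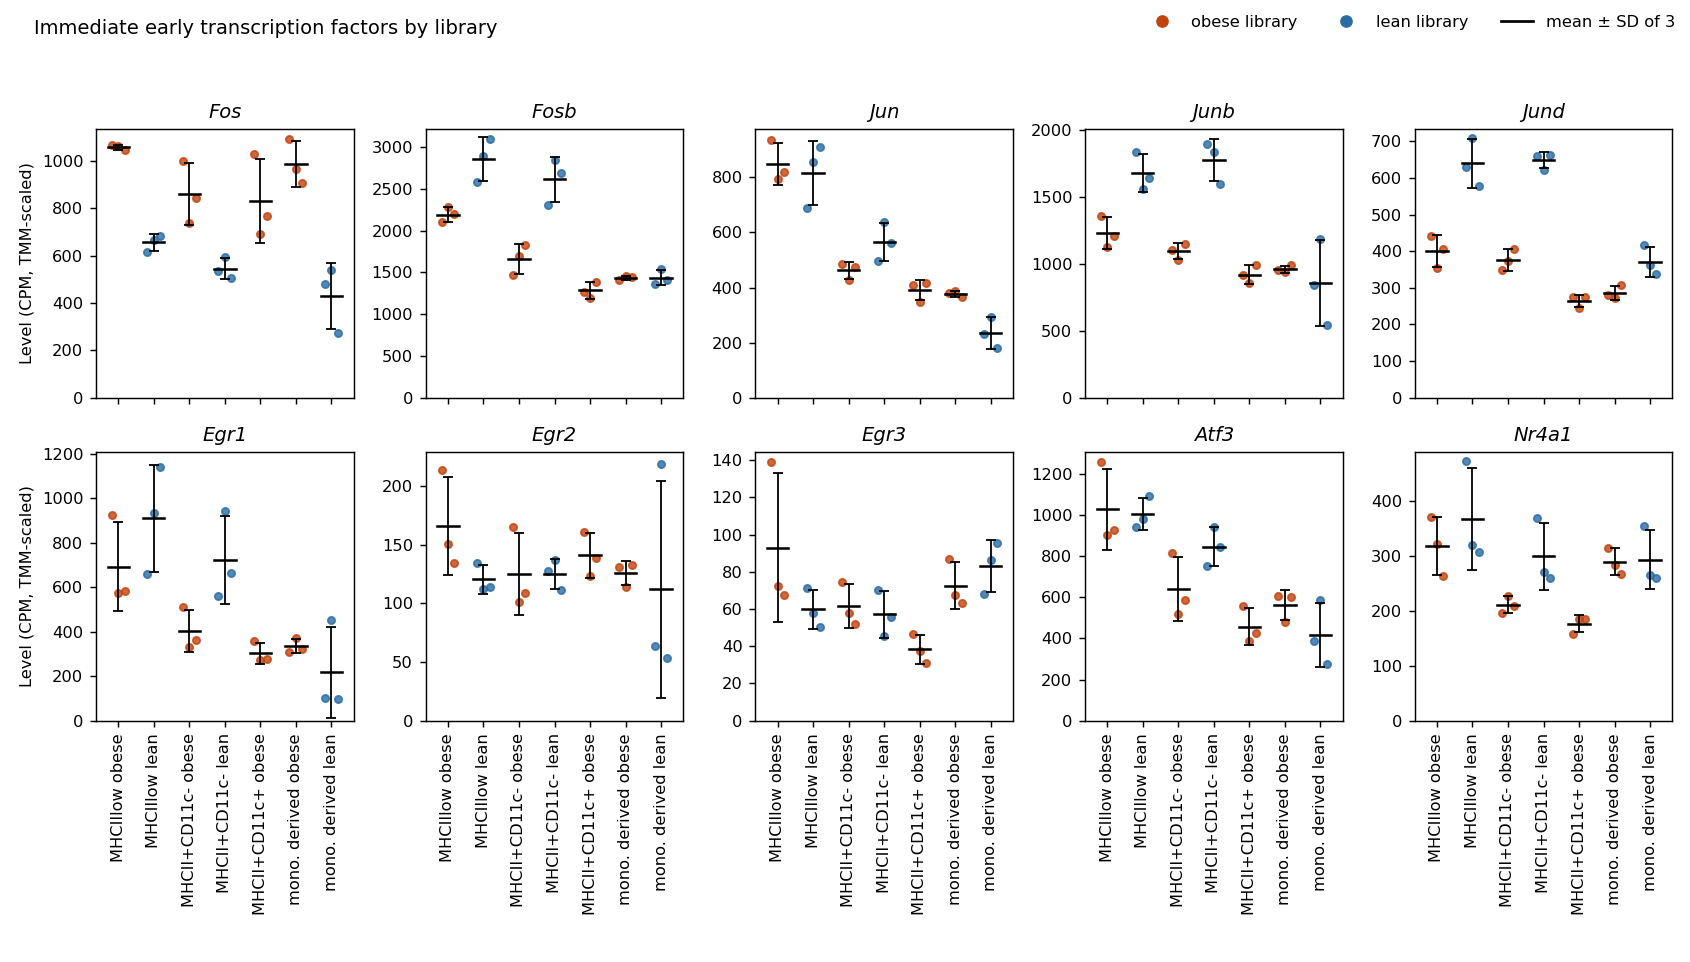
Level of each factor (CPM, TMM-scaled, linear axes from 0) in the 21 libraries by population and diet, with obese in red and lean in blue, and the bar showing mean ± SD of 3 libraries. In all 3 populations measured on both diets the obese libraries lie above the lean ones for Fos and below them for Jund.

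Among the FOS proteins, Fos, an inducible partner within AP-1, was highest in obese MHCIIlow macrophages at 1058 ± 10.1 CPM and lowest in lean monocyte derived cells at 431 ± 139 CPM (SD, n = 3 here and below). The 4 obese groups held the 4 highest means, and the neighbours among them overlapped. Fosb, a relative of Fos whose long-lived splice form is known from brain, had the reverse order at the top, with 2858 ± 259 CPM in lean MHCIIlow and 2613 ± 273 CPM in lean MHCII+CD11c- macrophages, which overlapped. It was 2192 ± 88.5 CPM in obese MHCIIlow and 1660.2 ± 181 CPM in obese MHCII+CD11c- macrophages, and from 1283 to 1438 CPM on average in the other 3 groups. By CPM of whole genes Fosb exceeded Fos in all 21 libraries.

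Among the JUN proteins, Jun, the partner that activates most strongly, followed the population more than the diet. It was highest in MHCIIlow macrophages of both diets, with 849.8 ± 76.3 CPM in obese and 817 ± 116 CPM in lean libraries, which overlapped, and lowest in lean monocyte derived cells at 235 ± 56.7 CPM. Junb, which can oppose Jun, was highest in lean MHCII+CD11c- macrophages at 1778 ± 160.2 CPM, overlapping with lean MHCIIlow macrophages, and lowest in lean monocyte derived cells at 858 ± 323 CPM. Jund, the member of the family known for steady expression, was also highest in lean MHCII+CD11c- macrophages at 649 ± 22.1 CPM, beside 639.7 ± 65.9 CPM in lean MHCIIlow macrophages. Its lowest mean was 265 ± 16.1 CPM, in obese MHCII+CD11c+ macrophages.

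The widest spreads between replicates were those of Egr1 and Egr2 in lean monocyte derived cells, with SDs of 93.8% and 82.7% of the mean. Egr3 in obese MHCIIlow macrophages followed with 43.0%. The EGR factors did not vary most in every group, and in obese MHCII+CD11c+ macrophages Fos did (21.5%). Egr1, the zinc finger factor induced through the ERK kinases, had its highest mean in lean MHCIIlow macrophages (910.0 ± 240.1 CPM) and its lowest in lean monocyte derived cells (217 ± 203 CPM), where replicate 2 stood at 451 CPM and replicates 1 and 3 at 99.7 and 98.8 CPM. Egr2, a factor of nerve myelination and T cell restraint that macrophages also express, had group means of 112 to 166 CPM, and each neighbour in their order overlapped with the next. Egr3, its close relative, was lowest in obese MHCII+CD11c+ macrophages at 38.3 ± 7.94 CPM and highest in obese MHCIIlow macrophages at 93.1 ± 40.0 CPM, where replicate 1 had 139 CPM and replicates 2 and 3 had 72.5 and 67.6 CPM. Obese replicate 1 was the highest of its group for Egr1, Egr2, Egr3, Atf3 and Fos in each of the MHCIIlow, MHCII+CD11c- and MHCII+CD11c+ populations. In obese monocyte derived cells this also held for Fos, Egr3 and Atf3, but not for Egr1 and Egr2. The lead was small for Atf3 there, with 606 CPM against 602 CPM in replicate 3. It was also small for Fos in MHCIIlow macrophages, with 1066 CPM against 1063 CPM in replicate 2. Whether libraries of equal number come from the same animals is not stated.

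Atf3, a stress-induced factor that restrains inflammatory genes in macrophages, ran from 417 ± 158 CPM in lean monocyte derived cells to 1006 ± 76.2 CPM in lean and 1029.8 ± 198 CPM in obese MHCIIlow macrophages. Nr4a1, the receptor also called Nur77 that patrolling monocytes depend on, ran from 176 ± 15.5 CPM in obese MHCII+CD11c+ macrophages to 367 ± 92.8 CPM in lean MHCIIlow macrophages. The ratio of the highest to the lowest group mean was 4.20 for Egr1, 3.61 for Jun, 1.48 for Egr2 and between 2.07 and 2.47 for the other 7. For Fos, Jun, Junb, Egr1, Egr2 and Atf3 the lowest group was lean monocyte derived cells, with replicates 1 and 3 included. In replicate 2 of that group Egr1 was at 451 CPM and Jun at 294 CPM, above their group means of 217 and 235 CPM.

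**Figure D2:**
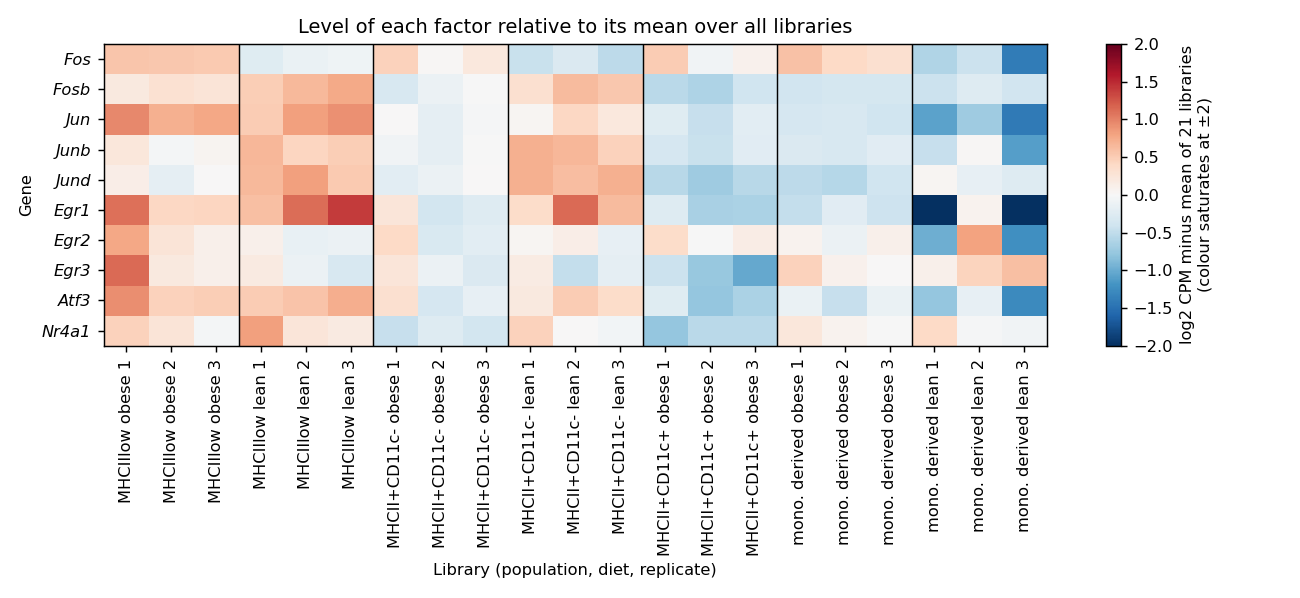
Level of each factor (rows) in each library (columns, grouped by population and diet), as log2 CPM minus the mean of that gene over all 21 libraries; red is above and blue below that mean, and the colour saturates at 2. Egr1 in lean monocyte derived replicates 1 and 3 is the lowest entry, at -2.11 and -2.12, against 0.07 in replicate 2.

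In MHCIIlow macrophages the diet comparison asks how obese differ from lean mice in this population. Fos was 1.61-fold higher in obese mice, and Fosb and Jund were lower. Fos had 1066, 1063 and 1047 CPM in obese libraries against 617, 667 and 683 CPM in lean libraries. The groups did not overlap, and Fos rose by a log2 change of 0.69 (SE 0.19, adjusted p = 0.00910, edgeR quasi-likelihood test with Benjamini-Hochberg adjustment over all tested genes, 2-sided, as for every adjusted p here). Jund had 442, 355 and 405 CPM in obese libraries against 629.5, 710.2 and 579 CPM in lean libraries, with every obese library lower, and fell with a log2 change of -0.67 (SE 0.11, adjusted p = 2.53e-04). Fosb had 2102, 2279 and 2195 CPM in obese libraries against 2584, 2889.9 and 3099 CPM in lean libraries. These did not overlap either, with a log2 change of -0.38 (SE 0.12, adjusted p = 0.0182). The Fosb call was lost without lean replicate 2 or 3 or obese replicate 2 or 3, with an adjusted p of 0.0547 to 0.0781. Leaving out the filter on low counts also lost it (log2 change -0.35, adjusted p = 0.116).

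Thus 1 of 10 factors rose and 2 fell, where 16.8% of all tested genes rose and 13.8% fell. Among the 3390 genes with a mean of at least 50 CPM, a level that better matches these factors, 31.6% rose and 9.29% fell. The median log2 change was -0.08 over the 10 factors and -0.07 over all tested genes. Junb had 1359, 1129.7 and 1207 CPM in obese libraries against 1839, 1564 and 1644 CPM in lean libraries, which did not overlap, but did not pass the test (log2 change -0.45, SE 0.18, adjusted p = 0.0594); it passed with DESeq2. Egr3 (log2 0.64, SE 0.25, adjusted p = 0.0576), Egr2 (0.46, SE 0.37) and Egr1 (-0.39, SE 0.44) had wide errors and overlapping libraries. Jun, Atf3 and Nr4a1 differed by log2 values of 0.06, 0.03 and -0.20, with SEs of 0.15, 0.22 and 0.17.

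In MHCII+CD11c- macrophages the same comparison gave 1 factor higher and 4 lower in obese mice. Fos had 998, 739 and 842 CPM in obese libraries against 534, 595 and 507 CPM in lean libraries, a log2 change of 0.66 (SE 0.19, adjusted p = 0.0106). Every obese library was above every lean one, although without obese replicate 1, the highest, the log2 change was 0.54 and the adjusted p 0.0541. Jund had 348, 372 and 407 CPM in obese libraries against 660.4, 623 and 663 CPM in lean libraries, and fell with a log2 change of -0.79 (SE 0.11, adjusted p = 4.54e-05). Fosb had 1466, 1689.6 and 1825 CPM in obese libraries against 2309.7, 2840.2 and 2689.8 CPM in lean libraries, with a log2 change of -0.65 (SE 0.12, adjusted p = 3.17e-04). Both genes were lower in each obese library than in any lean one.

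Junb also fell in these cells, with 1103, 1033 and 1153 CPM in obese libraries against 1897, 1841 and 1596 CPM in lean libraries (log2 change -0.70, SE 0.18, adjusted p = 0.00550). Prdx2, which overlaps Junb on the other strand, rose in the same comparison (log2 change 0.89, SE 0.19, adjusted p = 0.00153), so that the 2 genes moved in opposite directions. Nr4a1 had 196, 226 and 209 CPM in obese libraries against 369.6, 270.2 and 259 CPM in lean libraries, a log2 change of -0.51 (SE 0.17, adjusted p = 0.0291). The libraries did not overlap, but the call was lost without lean replicate 1 (log2 change -0.33, adjusted p = 0.179) and without obese replicate 1 or 3 (adjusted p = 0.0885 and 0.0682). Of all tested genes 16.8% rose and 15.6% fell, and of those with at least 50 CPM 28.9% rose and 16.0% fell. The median log2 change was -0.45 over the factors and -0.10 over all genes. Egr1 (log2 -0.84, SE 0.44, adjusted p = 0.153) and Jun (-0.29, SE 0.15, adjusted p = 0.135) had no overlap between the diets but did not pass. Atf3 (-0.40, SE 0.22), Egr3 (0.11, SE 0.25) and Egr2 (0.00, SE 0.37) overlapped.

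In monocyte derived cells Fos and Jun rose and Jund fell. Fos had 1093, 964 and 905 CPM in obese libraries against 482, 538 and 274 CPM in lean libraries, a 2.29-fold difference (log2 change 1.19, SE 0.19, adjusted p = 3.21e-04). Jun had 381, 386 and 364 CPM in obese libraries against 231, 294 and 181 CPM in lean libraries, a log2 change of 0.68 (SE 0.15, adjusted p = 0.00555). For both genes the 3 obese libraries were close together and the lean libraries were spread out below them, with replicate 3 lowest. Jund had 280.0, 272 and 307 CPM in obese libraries against 417, 361 and 337 CPM in lean libraries, which did not overlap (log2 change -0.38, SE 0.11, adjusted p = 0.0295). The Jund call was lost without lean replicate 1 or any 1 of the obese replicates, with adjusted p-values of 0.0531 to 0.233. It was also lost with no filter on low counts (log2 change -0.26, adjusted p = 0.260).

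With lean replicate 2 as the only lean library, and the spread of that arm taken from the other groups, the log2 change was 0.89 for Fos (adjusted p = 0.0125), 0.37 for Jun (adjusted p = 0.271) and -0.32 for Jund (adjusted p = 0.266). That fit called 1 of 10 factors higher and none lower, against 2.51% and 1.56% of all tested genes. In a fit of the 6 monocyte derived libraries alone none of the 10 factors passed, with adjusted p = 0.0612 for Fos and a log2 change of 1.22. In the fit of all libraries 2 of 10 factors rose and 1 fell, against 7.44% and 9.76% of all tested genes, and 20.8% and 3.48% of those with at least 50 CPM. The median log2 change was 0.17 over the factors and -0.05 over all genes. Egr1 had 310.0, 371 and 323 CPM in obese libraries against 99.7, 451 and 98.8 CPM in lean libraries. The obese libraries lay between the lean ones, and its log2 change of 0.63 had an SE of 0.44. Fosb (0.00, SE 0.12), Junb (0.16, SE 0.18), Egr2 (0.17, SE 0.37), Egr3 (-0.20, SE 0.25), Atf3 (0.43, SE 0.22) and Nr4a1 (-0.02, SE 0.17) overlapped between the diets.

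**Figure D3:**
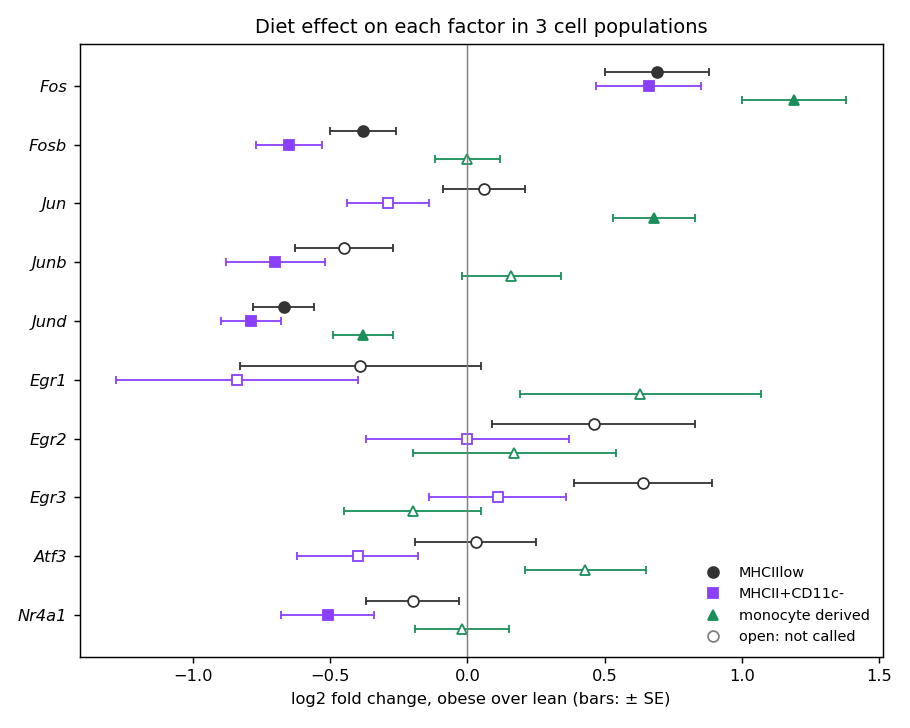
log2 fold change of obese over lean for each factor (rows) with its SE, in MHCIIlow macrophages (circles), MHCII+CD11c- macrophages (squares) and monocyte derived cells (triangles); filled symbols passed at adjusted p under 0.05. Fos lies right of 0 and Jund left of 0 in all 3, and for Jun the triangle, at 0.68, is filled and the other symbols are open.

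The differences between these diet effects were tested themselves. Between monocyte derived cells and MHCII+CD11c- macrophages, the diet effect was higher in monocyte derived cells by a log2 difference of 0.97 for Jun (SE 0.21, adjusted p = 0.00871), 0.65 for Fosb (SE 0.16, adjusted p = 0.0222) and 0.86 for Junb (SE 0.25, adjusted p = 0.0445). These are 3 of 10 factors, against 6.36% of all tested genes in either direction. For Fosb and Junb the difference came with a fall in MHCII+CD11c- macrophages and effects of 0.00 and 0.16 in monocyte derived cells. With replicate 2 as the only lean monocyte derived library the log2 differences were 0.68 for Jun (adjusted p = 0.0505), 0.58 for Fosb (adjusted p = 0.0671) and 0.42 for Junb (adjusted p = 0.158), and no factor was called, against 6.87% of all tested genes in either direction. Junb failed without any 1 of 10 of the 12 libraries compared, and Fosb without any 1 of 5. The diet effect on Fos differed by 0.54 (SE 0.26, adjusted p = 0.237) and that on Jund by 0.41 (SE 0.16, adjusted p = 0.134), and with that 1 lean library by 0.25 and 0.49. Between MHCII+CD11c- and MHCIIlow macrophages no factor was called, and 0.00% of all tested genes were called by edgeR, with 634 at an unadjusted p under 0.05, while DESeq2 called 8. The 10 factors differed there by log2 values from -0.53 (Egr3, SE 0.35) to -0.03 (Fos, SE 0.26).

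Fos moved opposite to Fosb and Jund in MHCIIlow and MHCII+CD11c- macrophages. In monocyte derived cells Fos moved opposite to Jund, while Fosb averaged 1434 CPM in obese and 1438 CPM in lean libraries. These changes were also read as ratios of raw counts within each library, which need no scaling between libraries. These ratios were chosen after the values had been seen and follow from them. In MHCIIlow macrophages there were 0.507, 0.466 and 0.477 Fos reads per Fosb read in obese libraries against 0.239, 0.231 and 0.220 in lean libraries. In MHCII+CD11c- macrophages the ratio was 0.681, 0.437 and 0.461 in obese libraries against 0.231, 0.210 and 0.188 in lean libraries. In monocyte derived cells it was 0.778, 0.665 and 0.625 in obese libraries against 0.353, 0.350 and 0.194 in lean libraries. No obese library of any population overlapped with any lean library, and obese MHCII+CD11c+ macrophages, with no lean counterpart, lay at 0.553 to 0.813.

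On the log2 scale the mean ratio of Fos to Fosb was higher in obese than in lean libraries by 1.07 in MHCIIlow macrophages, 1.30 in MHCII+CD11c- macrophages and 1.25 in monocyte derived cells. The ratio of Fos to Jund was 1.98 to 3.90 in the 12 obese libraries and 0.765 to 1.49 in the 9 lean ones, with log2 differences of 1.37, 1.44 and 1.62 in the same order of populations. Each of these 6 differences had an exact 2-sided permutation p of 0.1, the smallest that 3 against 3 libraries allow, and adjustment over the 9 ratios computed could only raise it. In monocyte derived cells the differences from lean replicate 2 alone were 0.97 for Fos over Fosb and 1.21 for Fos over Jund, with no test. Fosb to Jund differed by 0.30 (exact permutation p = 0.2), 0.14 (0.4) and 0.37 (0.1), and overlapped between the diets in the first 2 populations. Fos over Fosb in obese replicate 1 was the highest of its group in all 4 obese populations.

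**Figure D4:**
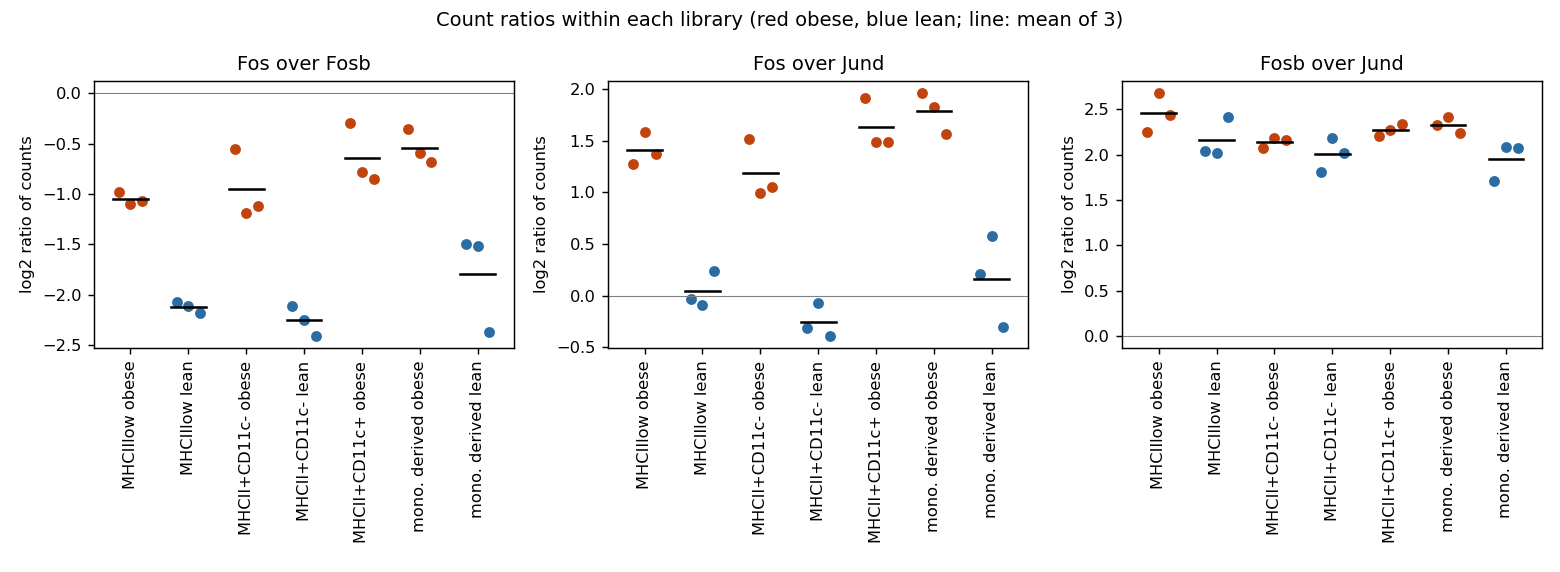
log2 ratio of raw counts within each library for Fos over Fosb, Fos over Jund and Fosb over Jund, by population with obese (red) left of lean (blue); the line is the mean of 3 libraries. For the first 2 ratios every obese library of a population lies above every lean one, with Fos over Jund at 0.99 or more in obese and 0.58 or less in lean libraries.

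Populations were compared within each diet, and comparisons that name the same group share its libraries. In obese mice, MHCII+CD11c+ against MHCII+CD11c- macrophages asks what goes with CD11c. Without the replicate block Jund alone was called, with 275, 246 and 274 CPM in MHCII+CD11c+ against 348, 372 and 407 CPM in MHCII+CD11c- libraries (log2 change -0.50, SE 0.11, adjusted p = 0.0179). The libraries did not overlap, and the call was lost when any 1 of them other than MHCII+CD11c- replicate 1 was left out. No factor rose and 1 of 10 fell, against 1.38% and 2.11% of all tested genes; scaling with DESeq2 size factors changed the whole-genome split from 317 higher and 484 lower to 437 and 443. Fosb (-0.37, SE 0.12, adjusted p = 0.0805), Egr3 (-0.68, SE 0.25, adjusted p = 0.136) and Atf3 (-0.49, SE 0.22, adjusted p = 0.226) did not pass. Equal replicate numbers paired the obese libraries of these populations, and in the fit with the replicate number as a block Fosb (-0.37, SE 0.10, adjusted p = 0.0250) and Egr3 (-0.68, SE 0.16, adjusted p = 0.0145) were called lower beside Jund (-0.51, adjusted p = 0.00579), where 3.68% of all tested genes rose and 4.37% fell. Fos averaged 831 ± 178 CPM in MHCII+CD11c+ and 859.7 ± 131 CPM in MHCII+CD11c- macrophages, a log2 change of -0.05 (SE 0.18).

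Between obese MHCII+CD11c- and obese MHCIIlow macrophages Jun alone was called without the replicate block, and Jun, Nr4a1, Atf3 and Fosb with it. Jun had 484, 428 and 474 CPM in MHCII+CD11c- libraries against 937, 795 and 818 CPM in MHCIIlow libraries, with a log2 change of -0.88 (SE 0.15, adjusted p = 0.00135). Every MHCII+CD11c- library was lower by a wide margin, and the call held without each of the 6 libraries in turn. None of the 10 factors rose and 1 fell, against 1.19% and 1.85% of all tested genes. Nr4a1 (-0.60, SE 0.17, adjusted p = 0.0668), Fosb (-0.40, SE 0.12, adjusted p = 0.0678) and Atf3 (-0.68, SE 0.22, adjusted p = 0.113) lay on the same side and did not pass without the block. In the fit with the block, whose numbers paired these libraries too, Nr4a1 (-0.59, SE 0.11, adjusted p = 0.00339), Atf3 (-0.69, SE 0.16, adjusted p = 0.0126) and Fosb (-0.41, SE 0.10, adjusted p = 0.0183) were called lower, where 2.12% of all tested genes rose and 2.98% fell. In lean mice the same pair of populations gave no call among the factors with edgeR, where 1 member (Jun) had an unadjusted p under 0.05 and DESeq2 called that 1; 1.05% of all tested genes rose and 0.253% fell. Jun had 498, 637 and 561 CPM in lean MHCII+CD11c- against 687, 854 and 910.4 CPM in lean MHCIIlow libraries (log2 change -0.53, SE 0.15, adjusted p = 0.0896), again without overlap.

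Monocyte derived cells were set against MHCII+CD11c- macrophages in both diets. In obese mice Jund alone was called without the replicate block, with 280.0, 272 and 307 CPM in monocyte derived against 348, 372 and 407 CPM in MHCII+CD11c- libraries (log2 change -0.39, SE 0.11, adjusted p = 0.0154). It was lost without MHCII+CD11c- replicate 2 or 3 or monocyte derived replicate 1 or 2 (adjusted p = 0.0591 to 0.129). None of 10 rose and 1 fell, where 11.0% of all tested genes rose and 12.8% fell. Nr4a1, at 289 ± 24.4 CPM in monocyte derived cells and 211 ± 15.0 CPM in MHCII+CD11c- macrophages, did not pass (log2 change 0.45, SE 0.17, adjusted p = 0.0607). With the block, whose numbers paired these libraries as well, Nr4a1 was called higher (0.45, SE 0.11, adjusted p = 0.00485) beside the lower Jund (-0.39, adjusted p = 0.00743), where 13.3% of all tested genes rose and 15.7% fell.

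In lean mice 6 of 10 factors were lower in monocyte derived cells than in MHCII+CD11c- macrophages and none was higher, where 20.1% of all tested genes fell and 23.6% rose. The median log2 change was -0.83 over the factors and 0.14 over all genes. Jun fell to 235 ± 56.7 CPM in monocyte derived cells, against 565 ± 69.6 CPM in MHCII+CD11c- macrophages (log2 change -1.27, SE 0.15, adjusted p = 9.00e-07). Fosb (-0.86, SE 0.12), Junb (-1.05, SE 0.18) and Jund (-0.80, SE 0.11) fell as well, at adjusted p = 5.17e-06, 8.12e-05 and 9.36e-06. Egr1 (-1.73, SE 0.45, adjusted p = 0.00548) and Atf3 (-1.02, SE 0.22, adjusted p = 9.89e-04) also fell. With replicate 2 as the only lean monocyte derived library, and its spread taken from the other groups, the log2 changes were -0.98 for Jun, -0.80 for Fosb, -0.61 for Junb and -0.88 for Jund, each with an adjusted p under 0.05. Egr1 (-0.71, adjusted p = 0.161) and Atf3 (-0.56, adjusted p = 0.112) then did not pass, and Egr2, at 219 CPM in that library, had a log2 change of 0.77 (adjusted p = 0.0283). In that fit 13.2% of all tested genes rose and 15.6% fell. Summed macrophage markers were 2681 and 3429 CPM in lean monocyte derived replicates 3 and 1, 7505 CPM in replicate 2, and 5751 to 6704 CPM in lean MHCII+CD11c- libraries. Summed dendritic cell markers were 808, 1107 and 357 CPM in monocyte derived replicates 3, 1 and 2, and 76.6 to 86.7 CPM in MHCII+CD11c- libraries. Their part in these differences was not tested.

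Other genes of the pathway are described by fixed lists, whose counts stand beside the shares of all tested genes: 16.8% rose and 13.8% fell in MHCIIlow macrophages, 16.8% and 15.6% in MHCII+CD11c- macrophages, and 7.44% and 9.76% in monocyte derived cells. Among genes with at least 50 CPM, 31.6%, 28.9% and 20.8% rose and 9.29%, 16.0% and 3.48% fell in the same order of populations. Of 11 other AP-1 family and partner genes, none rose in obese mice and 5 fell in MHCIIlow macrophages (median log2 change -0.45), 8 fell in MHCII+CD11c- macrophages (median -0.68) and 1 fell in monocyte derived cells (median -0.18; none, with a median of -0.31, with lean replicate 2 as the only lean library). Mafk, a small MAF protein that pairs with zipper factors, fell to 131 ± 21.6 CPM in obese against 261 ± 26.8 CPM in lean MHCII+CD11c- macrophages (log2 change -1.0, adjusted p = 9.36e-04). Fosl1, a FOS relative, fell there to 32.1 ± 8.64 CPM against 90.7 ± 18.8 CPM (log2 change -1.50, adjusted p = 0.00347). Jdp2, a repressor that pairs with JUN proteins, fell in both macrophage populations, with log2 changes of -0.57 in MHCIIlow and -0.68 in MHCII+CD11c- macrophages.

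Of 20 other immediate early genes, 2 rose and 4 fell in obese MHCIIlow macrophages (median log2 change -0.25), 3 rose and 8 fell in MHCII+CD11c- macrophages (median -0.34), and 4 rose and none fell in monocyte derived cells (median 0.24; none was called, with a median of 0.01, with lean replicate 2 alone). Rgs1, a brake on G protein signalling, was 742 ± 131 CPM in obese against 147 ± 23.6 CPM in lean MHCIIlow macrophages (log2 change 2.34, SE 0.29, adjusted p = 1.73e-05), and rose by 2.05 in MHCII+CD11c- macrophages and 1.17 in monocyte derived cells, where it was 0.53 (adjusted p = 0.383) with lean replicate 2 alone. Trib1, a pseudokinase, fell by 1.16 on the log2 scale in MHCII+CD11c- macrophages and by 0.74 in MHCIIlow macrophages. Nr4a3 and Nr4a2, the relatives of Nr4a1, were higher in monocyte derived cells than in MHCII+CD11c- macrophages, in obese mice with log2 changes of 3.05 and 1.85 and in lean mice of 2.73 and 1.36 (2.03 and 1.23 with lean monocyte derived replicate 2 alone). For Nr4a1 itself those values were 0.45 in obese mice, which passed with the replicate block alone, and -0.03 in lean mice, which did not pass.

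Genes that limit or drive these factors are set beside the same shares. Of all tested genes 16.8%, 16.8% and 7.44% rose in MHCIIlow macrophages, MHCII+CD11c- macrophages and monocyte derived cells. Among those with at least 50 CPM, 31.6%, 28.9% and 20.8% rose. The counts of feedback genes below do not exceed these last shares. Of 10 feedback phosphatases and corepressors 2 rose in obese MHCIIlow macrophages and 2 in MHCII+CD11c- macrophages, in both cases Dusp4 and Dusp5, which inactivate MAP kinases, and none was called in monocyte derived cells. Dusp4 was 30.6 ± 8.04 CPM in obese against 8.67 ± 1.17 CPM in lean MHCIIlow macrophages (log2 change 1.82, SE 0.19, adjusted p = 1.42e-06). Of 17 upstream kinases and factors 9 rose in MHCIIlow macrophages, 6 in MHCII+CD11c- macrophages and 3 in monocyte derived cells, and the last also had 1 lower, Creb1 (1 higher, Elk3, and none lower with lean replicate 2 alone). Mapk3, which encodes the kinase ERK1, was 114 ± 19.4 CPM in obese against 57.3 ± 8.86 CPM in lean MHCIIlow macrophages (log2 change 1.00, SE 0.15, adjusted p = 7.22e-05), and its log2 change was 1.07 in MHCII+CD11c- macrophages and 0.70 in monocyte derived cells (0.47, adjusted p = 0.215, with lean replicate 2 alone).

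Tissue handling is also known to raise heat shock genes. Of all tested genes 13.8%, 15.6% and 9.76% fell in MHCIIlow macrophages, MHCII+CD11c- macrophages and monocyte derived cells, and 16.8%, 16.8% and 7.44% rose. Among those with at least 50 CPM, 9.29%, 16.0% and 3.48% fell in the same order. Of 13 such genes, 6 fell and 1 rose in obese MHCIIlow macrophages, 7 fell in obese MHCII+CD11c- macrophages, and none was called in monocyte derived cells (median log2 changes -0.56, -0.78 and 0.01). With lean monocyte derived replicate 2 alone, the median in those cells was -0.43. Hspa1b, an inducible HSP70 chaperone that shares nearly all its sequence with Hspa1a, was 88.5 ± 28.6 CPM in obese against 867 ± 473 CPM in lean MHCII+CD11c- macrophages (log2 change -3.29, SE 0.58, adjusted p = 5.28e-04). Dnajb1, a cochaperone, was 44.1 ± 1.79 CPM in obese against 73.2 ± 13.6 CPM in lean libraries of that population (log2 change -0.73, SE 0.13, adjusted p = 3.42e-04). Summed over the 13 genes the level was 3446 to 3781 CPM in obese and 3937 to 6375 CPM in lean MHCIIlow macrophages, 2825 to 3276 CPM in obese and 3635 to 6232 CPM in lean MHCII+CD11c- macrophages, and 2847 to 3308 CPM in obese and 2552 to 4704 CPM in lean monocyte derived cells. Their part in the differences of the factors was not tested. Of 13 rapidly induced inflammatory genes none rose, and 2, 4 and 3 fell in the 3 populations in that order. The 2 in MHCIIlow macrophages are near the share of all tested genes that fell. Icam1 was among them in each population. In monocyte derived cells the median log2 change of these 13 genes was -0.10, and -0.41 with lean replicate 2 alone.

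Genes with the most similar pattern over the 7 group means of log2 CPM were looked up for 3 members among 9585 other genes with at least 10 CPM in their highest group. For Fos these were Ddit3 (Pearson r = 0.971), Cpne2 (0.964), Chmp4b, Asxl1 and Akap10 (0.956 each). For Egr1 they included Top3a (0.998), Ms4a4a (0.996), Gm4279 (0.991) and 4933434E20Rik (0.989), and for Nr4a1 Slc22a23 (0.990), Bcl9l (0.983), Kmt2e, Fam20a (0.979 each) and Ceacam2 (0.976). These values describe 7 points that share their scaling and libraries, and with so many genes searched high values arise easily. The point of lean monocyte derived cells includes replicates 1 and 3. Among the members themselves, Fosb was most like Junb (r = 0.951) and Jund (0.938), and Egr1 most like Atf3 (0.963) and Jun (0.958), while Fos had values of -0.429 with Jund and -0.119 with Fosb over the same 7 groups.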

How the data were processed

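RNA-seq counts of 21 libraries were analysed. The deposited values are raw counts of reads per gene, and the submitters' processing notes list STAR 2.6.0a, Trim Galore 0.4.5, Subread 1.4.6-p5 with featureCounts, bcl2fastq and the build GRCm38. No source used here gives the strand setting. Gene IDs were matched to symbols in GENCODE M21, 53315 of 54532 with their version and 54495 without it.

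Genes were filtered with filterByExpr, libraries scaled by TMM, and 7 group means fitted to all libraries with the robust quasi-likelihood model of edgeR 4.0.16 (R 4.3.3), with a common dispersion of 0.0502 and 14 residual degrees of freedom. A gene is called at an adjusted p under 0.05. CPM are TMM-scaled, with a prior count of 2 on the log2 scale. Members were named in all comparisons, and at most 3 called genes with the smallest p per list and comparison. A gene that the search for similar patterns found is not reported here. The members and lists were chosen with earlier results of these data known. Exact permutation tests used scipy 1.17.1. The fit was checked on simulated counts.

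No label says whether replicates were separate animals, so p-values measure only the spread between these samples. Library totals limit the counting error, which covers sampling of reads only. Alternatives were DESeq2 1.42.0 and its size factors, no filter, a replicate block, the compared libraries alone, and leaving out each library. Titles and descriptions number the lean replicates differently. In the 3 comparisons within obese mice every same-numbered pair of libraries had correlated deviations from the group means (r = 0.3 to 0.771), so the numbers were taken to pair those libraries, from the data and not from a label.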

Additional observations from a re-analysis of the deposited data

Results flagged for a closer look

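The diet effect on 3 factors differed between monocyte derived cells and MHCII+CD11c- macrophages by a test of the difference itself. The log2 differences, monocyte derived minus MHCII+CD11c-, were 0.97 for Jun, 0.65 for Fosb and 0.86 for Junb. With replicate 2 as the only lean monocyte derived library, the differences were 0.68, 0.58 and 0.42 in the same order, and none had an adjusted p under 0.05.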

How the results depend on the processing

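No member value called in the first fit of all libraries turned its sign under any alternative. Of 292 recomputed values of these 23 calls, 240 were still called and 52 were not. Among member values not called in that fit, 65 recomputed values turned their sign. These include the Egr2 value given above for lean monocyte derived cells against MHCII+CD11c- macrophages. Its log2 change was -0.16 in the first fit and 0.77 with lean monocyte derived replicate 2 alone. Of the factors called, diet in MHCIIlow macrophages gave 3, and 5 with no filter on low counts (2 to 4 leaving out 1 library). Those 5 did not include Fosb. Diet in MHCII+CD11c- macrophages gave 5 (3 to 5, with 3 without obese replicate 1). Diet in monocyte derived cells gave 3 (2 to 7, with 7 without lean replicate 2), 0 in the compared libraries alone and 1 without lean replicates 1 and 3. Obese MHCII+CD11c+ against MHCII+CD11c- macrophages gave 1 (0 to 1), 3 with no filter, 3 with a replicate block, 2 in the compared libraries alone and 2 with DESeq2. Obese MHCII+CD11c- against MHCIIlow macrophages gave 1 (1 to 2), and 5, 4, 2 and 4 under those settings. Obese monocyte derived cells against MHCII+CD11c- macrophages gave 1 (0 to 1), 0 with no filter, 2 with a replicate block, 3 alone, 2 with DESeq2 and 2 with its size factors. Lean MHCII+CD11c- against MHCIIlow macrophages gave 0, and 1, Jun, with no filter, a replicate block, the libraries alone or DESeq2. The difference of diet effects between monocyte derived cells and MHCII+CD11c- macrophages gave 3 (1 to 6), 5 with no filter, 5 with a replicate block, 6 with a block on the description numbers, 1 alone and 0 without lean monocyte derived replicates 1 and 3. Fits without both of these leave that arm 1 library, assumed to vary like the other groups. The causes were not tested. Leaving out the filter moved the median log2 change of all genes by -0.291, -0.406 and 0.515 in diet MHCIIlow, diet monocyte derived and lean monocyte derived against MHCII+CD11c-.

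In lean libraries equal replicate numbers marked like deviations from the group mean in 4 of 9 pairs by title and 5 of 7 by description (r over 0.1). Among pairs of unequal number these were 3 of 18 and 2 of 20, with r up to 0.606. Equal description numbers had r of 0.0527 to 0.546, so a pairing by description remains possible. The numbers were not taken to pair lean samples or the diets, and the lean comparisons in the main text are unpaired. The replicate block changed no count by over 1.5 times other than those given here and beside the obese comparisons.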
